A study of Mus musculus with 18 samples.

Results

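The genes described here were chosen by name, with earlier results of these data known, out of 55414 gene identifiers in the deposited table. They are 36 genes of the lysosome and its proton pump. They comprise 11 acid hydrolases, 3 other proteins of the lysosomal lumen (Npc2, Grn and Psap), 5 membrane proteins, the transcription factors Tfeb and Tfe3, and 15 genes of the vacuolar proton pump (V-ATPase). Cathepsins are not among them. All 36 were among the 10948 genes that passed the filter on low counts and were tested. The samples were microglia, the resident macrophages of the brain, purified from male and female mice whose genotype label is Chd8 knockout (KO) or wild type (WT). Chd8 encodes a chromatin remodeler. There were 5 libraries of male KO, 5 of male WT, 4 of female KO and 4 of female WT, and the study's design compares expression among these sexes and genotypes. All libraries carry the prefix HX, which the labels do not explain. The labels do not give the age, strain, Cre driver, number of altered Chd8 copies or removed exons. Libraries were made by bulk MARS-seq, in which each captured 3′ end of a polyadenylated RNA carries a unique molecular identifier (UMI), from 30 ng of RNA per sample. The labels do not say that libraries came from separate animals, so p-values measure the spread between these libraries, which may be technical.

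The lysosome is an acidic organelle in which hydrolases break down proteins, glycans, lipids and nucleic acids, and it is central to the clearance of engulfed material by microglia. Its acidity comes from the V-ATPase, whose cytosolic V1 sector hydrolyses ATP and whose membrane V0 sector carries protons into the lumen. Many genes of both kinds hold the CLEAR element in their promoters, a palindrome bound by TFEB and TFE3, which enter the nucleus when lysosomes are stressed or nutrients are scarce.

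Promoter sequences are shown for members that hold the element near their start site, because it is the sequence feature known to be shared by such genes. As the element is known from genes of this kind, its share among the members was partly fixed beforehand and is no test. In the RefSeq promoter table of GRCm38.p6 (250 bases before to 50 bases after the start site), 30 of the 36 genes were matched by symbol. The 6-base core CACGTG was found in 10 of these 30 genes (33.3%), against 8.09% of 27025 genes in the table. The 8-base form TCACGTGA, which contains the core, was found in 4 (13.3%), against 1.12% of the 27025 genes. Both motifs are their own reverse complement, so each match covers both strands. The core was found in 4 of 10 matched hydrolases, 2 of 4 membrane proteins, 3 of 5 V0 genes and 1 of 4 V1 genes, and in none of the 3 luminal proteins, the 2 transcription factors or the 2 accessory subunits. A match is a description of the letters in the window and not a binding site. The windows below run 5′ to 3′ on the strand of the gene, with the motif in capitals. The first 4 are the genes with the 8-base form, Lamp1 is the gene with the most copies of the core, and Naglu is the hydrolase with the lowest p among the KO comparisons.
Atp6v0d1, chr8:105566050-105566079, minus strand: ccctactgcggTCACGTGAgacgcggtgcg
Atp6v0e, chr17:26676387-26676416, plus strand: tagcgcgccgaTCACGTGAgcctctgttga
Atp6v1a, chr16:44139373-44139402, minus strand: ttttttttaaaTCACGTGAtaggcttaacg
Mcoln1, chr8:3500462-3500491, plus strand: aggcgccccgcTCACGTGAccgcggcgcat
Lamp1, chr8:13159121-13159150, plus strand: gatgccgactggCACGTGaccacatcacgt
Naglu, chr11:101070009-101070038, plus strand: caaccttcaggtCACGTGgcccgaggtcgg

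The libraries held 435838 to 9149144 UMIs. Female KO replicate 33 (435838 UMIs) and female WT replicate 34 (458075 UMIs) were the shallowest, and replicate 33 gave the highest or the lowest value of 17 of the 36 genes (43.9% of all tested genes). Reads per UMI came in a low, a middle and a high range, of 1.79 to 1.89, 2.94 to 3.12 and 5.52 to 7.26. The low range held 4 male KO, 3 male WT, 1 female KO and 0 female WT libraries, and the high range held 1 female KO and 3 female WT libraries and no male library. The microglial label was checked against 10 marker genes, all 10 of which were seen in every library, with a summed level of 25751 to 35449 CPM (UMIs of a gene scaled to the library total). Chd8 was at 96.4 to 116 CPM in male KO against 135 to 167 CPM in male WT, and at 116 to 139 CPM in female KO against 132 to 186 CPM in female WT. A 3′ tag outside the removed exons would still be counted, so this does not check the KO label.

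Levels below are CPM scaled by the trimmed mean of M-values (TMM), with values of a group in ascending order of replicate number (male KO 6, 9, 17, 36 and 40, male WT 10, 11, 13, 14 and 37, female KO 1, 7, 16 and 33, female WT 30, 31, 34 and 39). Fold changes are log2 values ± SE from edgeR, and adjusted p-values are Benjamini-Hochberg values over all 10948 genes, called under 0.05. Because the samples are bulk RNA, fewer cells of a type and less RNA per cell cannot be told apart. CPM counts 3′ ends and is compared here between samples only, not between genes.

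**Figure D1:**
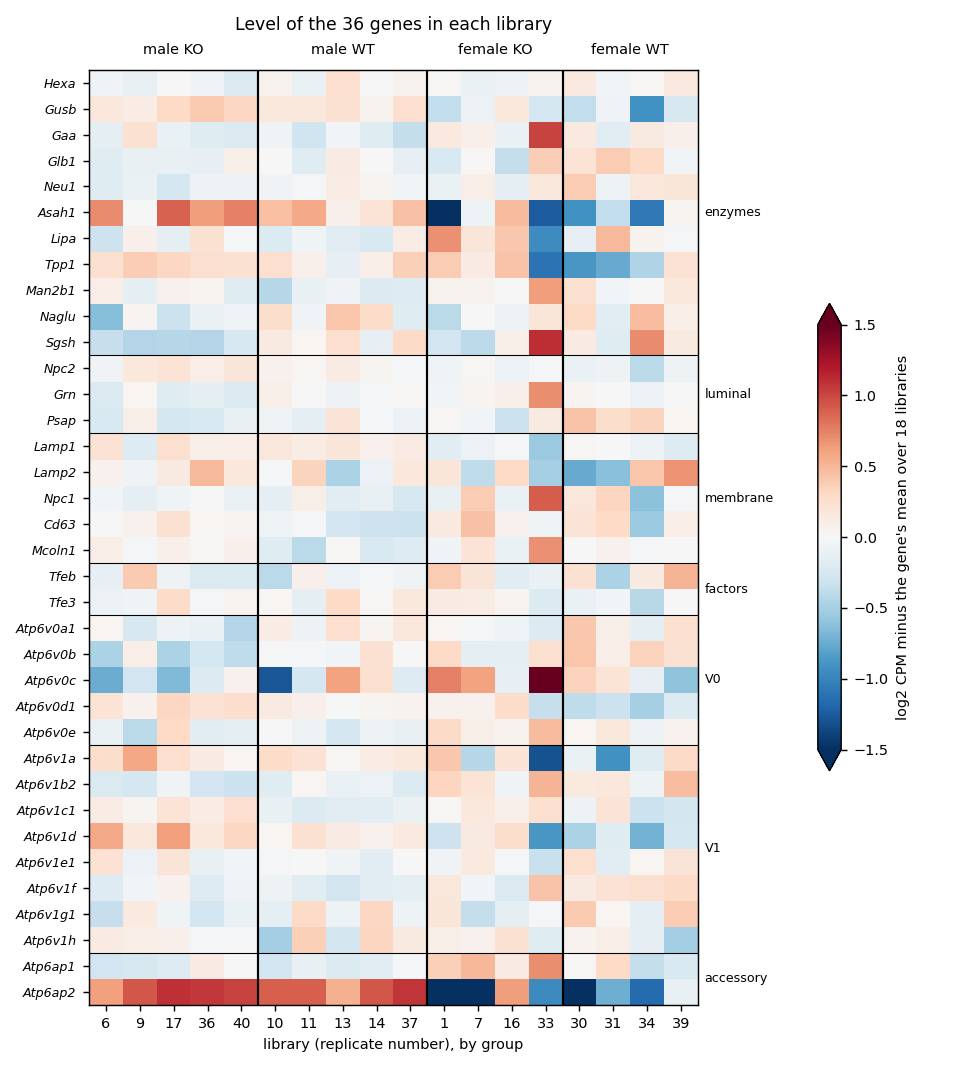
Level of each of the 36 genes (rows, grouped by role) in each of the 18 libraries (columns, by group), as log2 of CPM over the mean of that gene across libraries. Of the 36 genes 19 spanned under 2-fold over the 18 libraries, and Atp6ap2 was lower in 7 of the 8 female libraries than in any male library.

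KO against WT. The KO label went with small differences in these genes, and the 2 that passed the test were subunits of the proton pump. Averaged over the sexes with equal weight, Atp6v0d1 and Atp6v1c1 rose and no gene fell. Over all genes tested in that average, 4.37% were called higher and 5.13% lower, so 2 rising genes among 36 is close to the background. In females 0 of the 36 passed (edgeR), against 0.849% called higher and 1.83% lower among all tested genes, with 5 of the 36 at an unadjusted p under 0.05 and 1 called by DESeq2 (Atp6v0d1). In males 0 of the 36 passed (edgeR), against 3.37% called higher and 2.87% lower, with 6 of the 36 at an unadjusted p under 0.05 and 1 called by DESeq2 (Atp6v1c1). The difference of the KO effect between the sexes, female minus male, passed for 0 of the 36 (edgeR), with 2 at an unadjusted p under 0.05 and 0 by DESeq2. Among all tested genes 0.0457% were called higher and 0.192% lower in that difference. An unadjusted edgeR p under 0.05 was reached by 15.7% of all tested genes in females, 18.1% in males and 8.76% in the difference. The members' counts at that level lie below those shares in females, in males and in the difference. In the average the count lies above: 12 of the 36 reached that level, against 22.9996% of all tested genes.

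The median log2 fold change of the 36 genes was 0.13 in females, 0.05 in males and 0.09 in the average, against 0.01, -0.01 and 0.00 over all tested genes. The sign was positive for 22 of 36 genes in females and for 21 of 36 in males. Between-library spread was narrower than for other genes, with a median coefficient of variation of 10.4% in male KO, 8.85% in male WT, 16.9% in female KO and 15.8% in female WT, against 15.4%, 15%, 29.5% and 25.7% over all tested genes in the same order. The members and all tested genes were not matched for level, so the narrower spread cannot be read as particular to these genes. Without the 2 libraries under 1000000 UMIs, 6 members passed in the average, 2 in females and 2 in males. Those 6 were Atp6v0a1, Atp6v0d1, Atp6v1c1, Atp6v1d, Sgsh and Tpp1, and each is described with its class. The share of all tested genes called in that fit is not given here, so these counts have no background to be set against.

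In male KO libraries every value of Cd63 and Atp6v1c1 lay above every male WT value, which held for 5.27% of all tested genes, and every value of Neu1 and Sgsh lay below, which held for 4.58%. In females 0 of the 36 genes were separated upwards and 0 downwards, against 2.48% and 2.84% of all tested genes.

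**Figure D2:**
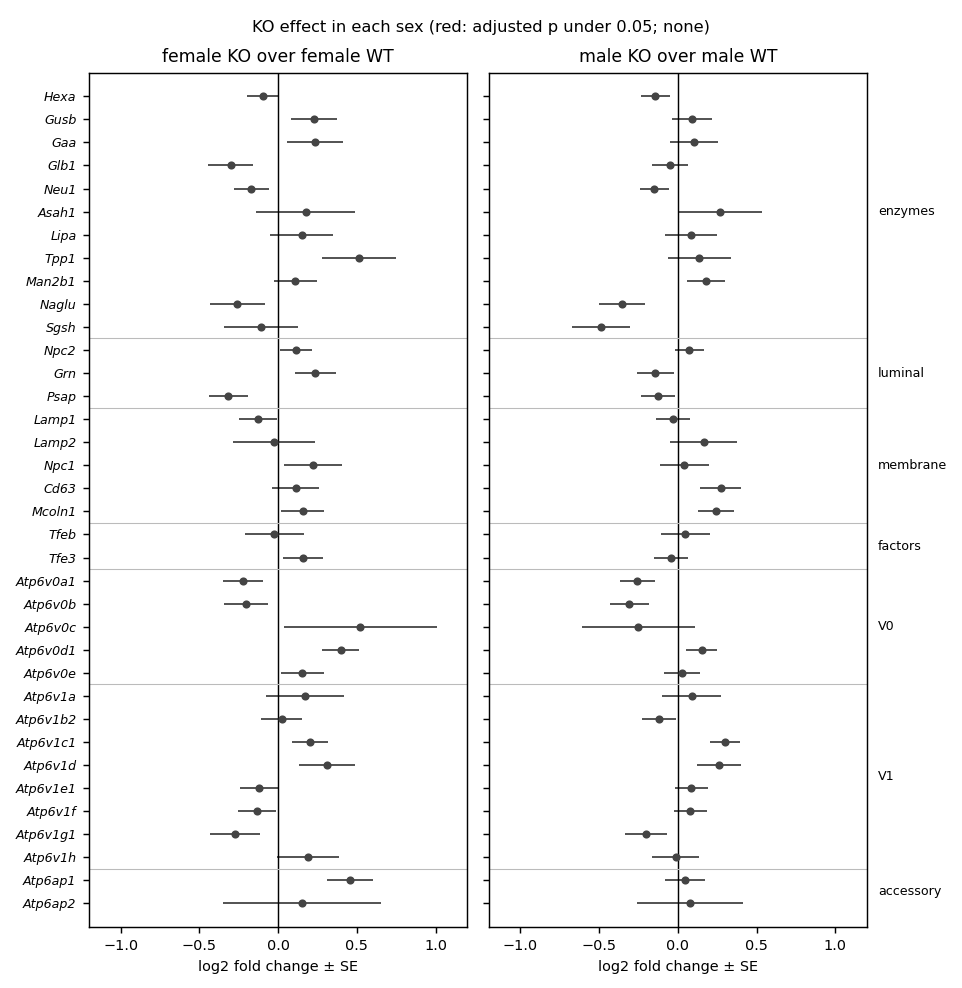
Log2 fold change ± SE of KO over WT for each of the 36 genes, in females (left, 4 libraries a group) and males (right, 5 libraries a group). No gene passed an adjusted p of 0.05 within a sex, and the changes run from -0.32 to 0.52 in females and from -0.49 to 0.30 in males.

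Markers of microglia and of other cells moved with the KO label. Of the 10 microglial markers 1 (Sall1) was higher in every male KO library than in every male WT library. Lower in every male KO library were 3 (Cx3cr1, Fcrls and Olfml3). Cx3cr1 was at 919 to 1700 CPM in male KO and 2407 to 3543 CPM in male WT. The microglial sum overlapped, at 26377 to 30216 CPM in male KO and 29897 to 33804 CPM in male WT. The summed level of 8 neuronal markers was 69.2 to 331 CPM in male KO and 14.1 to 38.1 CPM in male WT, with 8 of 8 markers seen in every male KO library and 4 of 8 in every male WT library. The sum over 8 astrocyte markers was 257 to 480.0 CPM in male KO and 133 to 182 CPM in male WT, where Gja1 was at 0 in all 5 libraries. The sum over 8 oligodendrocyte lineage markers was 301 to 875 CPM in male KO and 173 to 228 CPM in male WT. Of these 8, 3 were higher in every male KO library than in every male WT library, and 1 was lower. Over all tested genes those shares were 5.27% and 4.58%. Mbp was at 162 to 670 CPM in male KO and 45.8 to 91.8 CPM in male WT. Cnp was the lower one, at 47.4 to 58.9 CPM in male KO and 61.8 to 78.5 CPM in male WT. Mag overlapped, at 42.0 to 55.4 CPM in male KO and 45.6 to 70.6 CPM in male WT. Pdgfra was at 0 in every male KO library and Mog in every male WT library. Without male KO replicates 6, 9 and 17, the libraries with the most neuronal transcripts, 0 members passed in the average, while the log2 fold changes there were 0.30 for Atp6v0d1 and 0.285 for Atp6v1c1, against 0.27 and 0.25 with all libraries.

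Of 9 markers of border-associated macrophages, the macrophages of the meninges and perivascular spaces, 7 were higher in every male KO library than in every male WT library (Cd163, Pf4, Cbr2, Ms4a7, Lyve1, Cd209f and F13a1), against 5.27% of all tested genes. Pf4 was at 47.9 to 94.7 CPM in male KO and 13.3 to 24.6 CPM in male WT, and Cbr2 at 34.2 to 50.6 CPM in male KO and 4.88 to 10.8 CPM in male WT. The summed level of the 9, most of it Stab1, overlapped at 879 to 1183 CPM in male KO and 837 to 1063 CPM in male WT, and none of the 9 was at 0 in any library. The sum over 7 lymphocyte markers was 89.0 to 101 CPM in male KO and 58.3 to 78.0 CPM in male WT. In females 0 of the 9 macrophage markers were separated. The monocyte sum was 128 to 204 CPM in female KO and 212 to 725 CPM in female WT, the sum over 8 endothelial and mural markers 29.8 to 38.4 CPM in female KO and 41.7 to 52.4 CPM in female WT, and the sum over 10 microglial markers 30356 to 35449 CPM in female KO and 25751 to 29133 CPM in female WT. Of the 8 endothelial and mural markers 1 (Vtn) was lower in every female KO library than in every female WT library. Pecam1 overlapped, at 25.2 to 28.9 CPM in female KO and 19.6 to 37.2 CPM in female WT. Of the 8 monocyte markers 2 were separated downwards. Of the 10 microglial markers 0 were separated upwards and 1 downwards, although their sum was higher. The other marker sums overlapped between KO and WT in each sex. The part of these cells in the results was not tested otherwise.

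Hydrolases. None of the 11 hydrolases passed in a KO comparison, and 6 of 11 had a positive sign in females and in males. The lowest p belonged to Naglu, the alpha-N-acetylglucosaminidase that takes part in heparan sulphate breakdown. Naglu was at 136, 217, 169, 198 and 201 CPM in male KO and at 253, 204, 281, 256 and 186 CPM in male WT. Female libraries were at 159, 211, 198 and 239 CPM in KO and at 260.1, 187, 291 and 226 CPM in WT. The KO values were mostly the lower ones, and the groups overlapped in both sexes. The averaged log2 fold change was -0.31 ± 0.11 (edgeR adjusted p = 0.0947), and it passed only without female KO replicate 33 (adjusted p = 0.048 in edgeR).

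Sgsh, the heparan N-sulphatase of the same pathway, had the largest male difference among the hydrolases. It was at 29.2, 27.4, 27.6, 27.4 and 31.5 CPM in male KO, all below the 40.5, 37.9, 44.1, 34.1 and 45.3 CPM of male WT. In females it was at 30.4, 28.2, 39.3 and 79.8 CPM in KO and at 40.3, 32.6, 60.5 and 40.8 CPM in WT, where the shallow KO replicate 33 lay above all others and the groups overlapped. The male log2 fold change of -0.49 ± 0.18 did not pass (edgeR adjusted p = 0.132). It passed in 5 of 28 alternatives, among them the fit to the male groups alone (edgeR adjusted p = 0.00853). Card14 lies over the 3′ end of Sgsh on the opposite strand and had 8 UMIs over all libraries, against 1753 for Sgsh.

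Tpp1, the tripeptidyl peptidase, averaged 363 ± 16.0 CPM in male KO and 331 ± 41.9 CPM in male WT (SD, n = 5 each). It averaged 314 ± 121 CPM in female KO and 227 ± 83.5 CPM in female WT (SD, n = 4 each). Female KO replicate 33 was low at 139 CPM against 389, 326 and 402 CPM in the other KO libraries, and female WT replicate 39 was high at 347 CPM against 163, 177 and 219 CPM. The female log2 fold change was 0.51 ± 0.23 (edgeR adjusted p = 0.286), which passed in 3 of 27 alternatives. It was 0.72 without female KO replicate 33 (edgeR adjusted p = 0.0211), 0.72 without the 2 libraries under 1000000 UMIs (edgeR adjusted p = 0.0467) and 0.59 with no filter on low counts (edgeR adjusted p = 0.0221). Without female WT replicate 39 it was 0.82 and missed the threshold. After adjustment for the range of reads per UMI it was -0.11 (edgeR adjusted p = 0.835). The averaged log2 fold change was 0.32 ± 0.15 (edgeR adjusted p = 0.211) and passed in 4 of 26 alternatives.

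Neu1, the sialidase, lay at 118 to 133 CPM in male KO, against 136 to 152 CPM in male WT with no overlap, but its log2 fold change of -0.15 ± 0.09 did not pass (edgeR adjusted p = 0.457). Hexa, the beta-hexosaminidase alpha subunit, was the steadiest of the 36 genes. It averaged 1673 ± 87.9 CPM in male KO, 1848 ± 167 CPM in male WT, 1748 ± 88.3 CPM in female KO and 1865 ± 125 CPM in female WT, and its highest library was 1.38-fold over its lowest.

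Asah1, the acid ceramidase, spread most among the hydrolases, 5.36-fold over the 18 libraries. It averaged 349 ± 73.2 CPM in male KO and 290.5 ± 39.3 CPM in male WT, and 175 ± 111 CPM in female KO and 159 ± 57.3 CPM in female WT. The female libraries ran from 77.8 CPM in KO replicate 1 to 314 CPM in KO replicate 16.

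The other hydrolases had smaller or less even differences. Man2b1, the lysosomal alpha-mannosidase, averaged 1503 ± 131 CPM in male KO and 1330.2 ± 125 CPM in male WT, with female KO at 1759 ± 398 CPM and female WT at 1625 ± 152 CPM. Gaa, the acid alpha-glucosidase of glycogen, averaged 149 ± 19.9 CPM in male KO, 139 ± 13.5 CPM in male WT, 201 ± 77.9 CPM in female KO and 163 ± 15.3 CPM in female WT. Glb1, the beta-galactosidase, averaged 84.2 ± 6.23 CPM in male KO, 87.4 ± 7.06 CPM in male WT, 88.1 ± 20.3 CPM in female KO and 104 ± 12.5 CPM in female WT. In the female comparison its log2 fold change was -0.30 ± 0.14 (edgeR adjusted p = 0.301). Lipa, the acid lipase, averaged 82.7 ± 11.8 CPM in male KO, 78.0 ± 7.86 CPM in male WT, 96.2 ± 38.6 CPM in female KO and 91.4 ± 17.9 CPM in female WT. Gusb, the beta-glucuronidase, is described with the sex comparison.

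Luminal proteins without hydrolase activity. None of the 3 passed in a KO comparison. Psap encodes prosaposin, the precursor of the saposins that present sphingolipids to hydrolases. It was at 1348, 1681, 1322, 1353 and 1469 CPM in male KO and at 1519.7, 1446, 1817, 1551 and 1493 CPM in male WT. Female libraries were at 1597, 1534, 1268 and 1745 CPM in KO and at 2123, 1904, 1993 and 1619.9 CPM in WT. Among females only WT replicate 39 fell within the KO range. Its log2 fold change was -0.32 ± 0.12 in females (edgeR adjusted p = 0.194) and -0.22 ± 0.08 in the average (edgeR adjusted p = 0.0991). The average passed only without female KO replicate 33 (edgeR adjusted p = 0.0329), and it was -0.03 in read counts without UMI correction.

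Grn encodes progranulin, a secreted protein that is sorted to lysosomes. It averaged 2638 ± 192 CPM in male KO and 2916 ± 123 CPM in male WT, and 3399 ± 887 CPM in female KO and 2877 ± 110.2 CPM in female WT. The female KO mean rests on the shallow replicate 33, at 4722 CPM against 2832, 2986 and 3057 CPM in the other 3. The KO effects differed by 0.38 ± 0.18 on the log2 scale, female minus male, which did not pass (edgeR adjusted p = 0.530). Npc2, which binds cholesterol in the lumen, averaged 1148 ± 82.0 CPM in male KO, 1092 ± 40.3 CPM in male WT, 1025 ± 30.7 CPM in female KO and 946 ± 97.8 CPM in female WT.

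Membrane proteins. None of the 5 passed in a KO comparison. Mcoln1, the cation channel TRPML1 that releases calcium from the lysosome, was at 166, 152, 164, 158 and 164 CPM in male KO and at 137, 118, 157, 133 and 136 CPM in male WT. It was at 149, 179, 145 and 249.6 CPM in female KO and at 156, 162, 152 and 154 CPM in female WT. In males WT replicate 13 alone reached the KO range, and in females the groups overlapped. The averaged log2 fold change was 0.20 ± 0.09 (edgeR adjusted p = 0.188), with 0.24 ± 0.12 in males (edgeR adjusted p = 0.275).

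Cd63, a tetraspanin of late endosomes and exosomes, was at 577 to 671 CPM in male KO and at 459 to 564 CPM in male WT, with no overlap. Its male log2 fold change of 0.27 ± 0.13 did not pass (edgeR adjusted p = 0.283), and the female one was 0.11 ± 0.15 (edgeR adjusted p = 0.793). The last 300 bases of the Cd63 transcript were 99.3% identical to a transcribed pseudogene, Cd63-ps, which had 219 UMIs against 29957 for Cd63, so a small share of its counts is uncertain.

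Lamp1 and Lamp2 are the abundant glycoproteins of the lysosomal membrane. Lamp1 averaged 1579 ± 178 CPM in male KO, 1615 ± 52.0 CPM in male WT, 1288 ± 200.4 CPM in female KO and 1413 ± 94.1 CPM in female WT. Lamp2 averaged 119 ± 17.2 CPM in male KO, 106 ± 21.5 CPM in male WT, 101 ± 27.5 CPM in female KO and 110.1 ± 52.6 CPM in female WT. Npc1, which exports cholesterol from the lysosome with Npc2, averaged 130.2 ± 4.34 CPM in male KO, 127 ± 11.0 CPM in male WT, 172 ± 61.7 CPM in female KO and 137 ± 35.3 CPM in female WT. The opposite-strand gene Rmc1 overlaps the 3′ end of Npc1 with 1049 UMIs against 6863, and whether the counting used strand is not given in the sources used here.

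Transcription factors. Neither Tfeb nor Tfe3 passed in any comparison. Tfe3 was at 259, 264, 333, 272 and 284 CPM in male KO and at 281, 249, 338, 279.6 and 308 CPM in male WT. In females it was at 300.3, 298, 284 and 239 CPM in KO and at 256, 267, 206 and 275 CPM in WT. All 4 groups overlapped, and the log2 fold change of KO over WT was 0.16 ± 0.13 in females and -0.04 ± 0.11 in males. Tfeb averaged 114 ± 22.2 CPM in male KO, 109 ± 13.1 CPM in male WT, 124 ± 22.4 CPM in female KO and 128 ± 33.9 CPM in female WT. These factors are controlled largely by where in the cell they are, which RNA levels do not measure.

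V0 sector. Of the 5 V0 genes, Atp6v0d1 rose in the average. It encodes the d subunit, which sits between the rotor of V0 and the V1 sector, and spans 105524465 to 105566047 on the minus strand of chromosome 8 (GRCm38). Atp6v0d1 was at 237, 215, 255, 239 and 249 CPM in male KO and at 227, 217, 206, 212 and 214 CPM in male WT. Female libraries were at 216, 216, 249 and 162 CPM in KO and at 158, 165, 146 and 178 CPM in WT. In each sex a single KO library lay within the WT range, replicate 9 in males and replicate 33 in females. The log2 fold change was 0.27 ± 0.08 in the average, 1.21-fold (edgeR adjusted p = 0.0260), with 0.40 ± 0.12 in females (edgeR adjusted p = 0.0763) and 0.15 ± 0.10 in males (edgeR adjusted p = 0.472). The KO effect differed between the sexes by 0.25 ± 0.15, female minus male (edgeR adjusted p = 0.717).

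The level of Atp6v0d1 also went with the reads-per-UMI range. In the low range it was at 237, 255, 239 and 249 CPM in male KO and at 227, 206 and 214 CPM in male WT. In the middle range it was at 215 CPM in male KO against 217 and 212 CPM in male WT, and at 216 and 216 CPM in female KO against 178 CPM in female WT. In the high range female KO was at 162 CPM and female WT at 158, 165 and 146 CPM. Adjusted for the range of reads per UMI, the averaged log2 fold change was 0.16 (edgeR adjusted p = 0.232). It passed in 22 of 26 alternatives and also missed the threshold in uncorrected read counts (0.16, edgeR adjusted p = 0.372), with male KO replicates 6, 9 and 17 left out (0.30, edgeR adjusted p = 0.0666) and with female KO replicate 16 left out (0.24, edgeR adjusted p = 0.0612).

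Atp6v0a1 and Atp6v0b had the opposite sign. Atp6v0a1, which encodes an isoform of the large a subunit, averaged 211 ± 25.6 CPM in male KO and 252 ± 21.6 CPM in male WT, and 224 ± 15.4 CPM in female KO and 262 ± 41.5 CPM in female WT. Its averaged log2 fold change of -0.24 ± 0.08 did not pass (edgeR adjusted p = 0.0771), although it passed in 3 of 26 alternatives. Atp6v0b, a proteolipid of the proton-carrying ring, averaged 759 ± 137 CPM in male KO and 939.9 ± 76.6 CPM in male WT, and 974 ± 159.8 CPM in female KO and 1118 ± 106 CPM in female WT. Its averaged log2 fold change of -0.26 ± 0.09 did not pass (edgeR adjusted p = 0.0921). Male KO replicate 9, at 991 CPM, was the highest of its group, and without it the male fold change of -0.42 and the average of -0.31 (edgeR adjusted p = 0.0245) both passed.

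Atp6v0e, a small V0 subunit, averaged 131 ± 24.5 CPM in male KO, 129 ± 8.72 CPM in male WT, 164 ± 22.4 CPM in female KO and 144 ± 9.44 CPM in female WT. Atp6v0c, the main proteolipid of the ring, was counted at only 1.00 to 7.72 CPM, or 1 to 25 UMIs a library. The last 300 bases of its transcript are 100% identical to the pseudogene Atp6v0c-ps2 and 97.3% identical to Atp6v0c-ps1, so its level is uncertain. It averaged 1.93 ± 0.443 CPM in male KO, 2.34 ± 1.01 CPM in male WT, 4.44 ± 2.33 CPM in female KO and 2.44 ± 0.662 CPM in female WT.

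V1 sector. Of the 8 V1 genes, Atp6v1c1 rose in the average. It encodes subunit C1 of the stalk that joins V1 to V0, which is released when the pump is taken apart, and spans 38661933 to 38692446 on the plus strand of chromosome 15. Atp6v1c1 was at 179, 170.3, 189.7, 179 and 197 CPM in male KO, all above the 153, 143, 147, 148 and 154 CPM of male WT. In females it was at 168, 184, 174 and 196 CPM in KO and at 157, 188, 132 and 136 CPM in WT, and only WT replicate 31 lay within the KO range. Its log2 fold change was 0.25 ± 0.07 in the average, 1.19-fold (edgeR adjusted p = 0.0355), with 0.20 ± 0.11 in females (edgeR adjusted p = 0.401) and 0.30 ± 0.10 in males (edgeR adjusted p = 0.0721). The KO effect differed between the sexes by -0.09 ± 0.15 (edgeR adjusted p = 0.938).

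Within the low reads-per-UMI range Atp6v1c1 was at 179, 189.7, 179 and 197 CPM in male KO and at 153, 147 and 154 CPM in male WT. In the middle range it was at 170.3 CPM in male KO against 143 and 148 CPM in male WT, and at 168 and 184 CPM in female KO against 136 CPM in female WT. In the high range female KO was at 196 CPM and female WT at 157, 188 and 132 CPM. After adjustment for the range the averaged log2 fold change was 0.30 (edgeR adjusted p = 0.0311). It passed in 16 of 26 alternatives. It missed the threshold by leaving out any one of female KO replicate 7, female WT replicates 30, 34 and 39, male KO replicate 40 and male WT replicates 11 and 14, with log2 fold changes of 0.22 to 0.26 and edgeR adjusted p-values of 0.0513 to 0.075. Uncorrected read counts gave 0.35 (edgeR adjusted p = 0.0574), no filter on low counts gave 0.29 (edgeR adjusted p = 0.0809), and leaving out male KO replicates 6, 9 and 17 gave 0.285 (adjusted p = 0.073 in edgeR).

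Atp6v1d, of the central rotor shaft, had positive log2 fold changes of 0.31 ± 0.18 in females and 0.26 ± 0.14 in males, and 0.28 ± 0.11 in the average (edgeR adjusted p = 0.119). Atp6v1g1, of the peripheral stalk, averaged 144 ± 19.6 CPM in male KO and 165 ± 25.9 CPM in male WT, and 149 ± 23.3 CPM in female KO and 177 ± 32.4 CPM in female WT. Its averaged log2 fold change of -0.24 ± 0.10 did not pass (edgeR adjusted p = 0.166). Atp6v1e1, also of the stalk, averaged 153 ± 16.6 CPM in male KO, 144 ± 6.75 CPM in male WT, 143 ± 19.0 CPM in female KO and 158 ± 19.9 CPM in female WT.

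Atp6v1a, Atp6v1b2, Atp6v1f and Atp6v1h had KO log2 fold changes of -0.13 to 0.19 in either sex, and none passed. The catalytic subunit Atp6v1a averaged 45.6 ± 6.82 CPM in male KO, 42.5 ± 2.84 CPM in male WT, 34.5 ± 15.7 CPM in female KO and 34.0 ± 10.7 CPM in female WT. Atp6v1h, a regulatory subunit, averaged 33.2 ± 1.63 CPM in male KO, 33.1 ± 8.26 CPM in male WT, 33.3 ± 3.82 CPM in female KO and 29.8 ± 5.40 CPM in female WT. Over the 15 pump genes, 9 had a positive and 6 a negative sign in the average, so the pump's genes did not share a direction.

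Accessory subunits. Neither accessory subunit passed in a KO comparison. Atp6ap1, which assists assembly of the pump, was at 259, 267, 276, 344 and 318 CPM in male KO and at 259, 292, 274, 283 and 312 CPM in male WT. Female libraries were at 404, 445, 344 and 515 CPM in KO and at 321, 388, 246 and 269 CPM in WT. The male groups overlapped widely, and in females WT replicate 31 alone lay above the lowest KO library. The log2 fold change was 0.46 ± 0.15 in females (edgeR adjusted p = 0.101) and 0.04 ± 0.13 in males, and the difference of 0.41 ± 0.19, female minus male, did not pass (edgeR adjusted p = 0.551). The female change passed in 2 of 27 alternatives. These were without female WT replicate 31 (edgeR adjusted p = 0.0306) and with no filter on low counts (edgeR adjusted p = 0.0434). The averaged log2 fold change of 0.25 ± 0.10 did not pass (edgeR adjusted p = 0.112), and it passed in 2 of 26 alternatives. It was 0.32 without female WT replicate 31 (edgeR adjusted p = 0.0374) and 0.34 after adjustment for the range of reads per UMI (edgeR adjusted p = 0.0474).

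Atp6ap2 (chromosome X, 12587801 to 12617049, plus strand), the (pro)renin receptor and a subunit of the pump, spread 14.9-fold over the 18 libraries, the widest of the 36. It was at 68.9, 85.6, 96.1, 93.9 and 90.5 CPM in male KO and at 83.6, 83.7, 64.9, 86.1 and 94.9 CPM in male WT. In females it was at 9.79, 6.45, 69.3 and 23.2 CPM in KO and at 13.9, 27, 20.2 and 41.6 CPM in WT. Female KO replicate 16, the only female library in the low reads-per-UMI range, was at the male level and the other 7 were below every male library. The female KO log2 fold change was 0.15 ± 0.50 (edgeR adjusted p = 0.934). Without replicate 16 it turned to -1.49 (edgeR adjusted p = 0.0444), and the average turned to -0.70 (edgeR adjusted p = 0.031), so the direction of the KO comparison rests on 1 library.

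**Figure D3:**
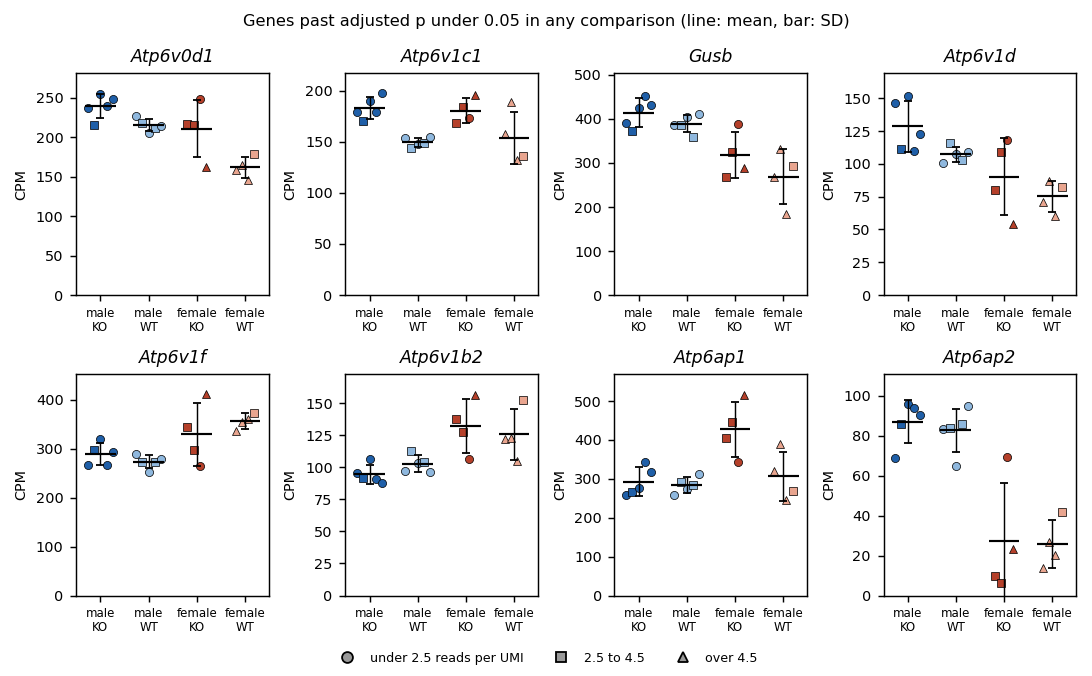
CPM of the members that passed in a comparison, 1 panel a gene, with a point for each library, by group (male KO, male WT, female KO, female WT), and the mean ± SD, cut at 0; circles, squares and triangles mark the low, middle and high range of reads per UMI. Atp6v0d1 and Atp6v1c1 averaged 239 and 183 CPM in male KO against 215 and 149 CPM in male WT, and the male points of Atp6ap2 lie at 64.9 to 96.1 CPM while 7 of 8 female points lie at 41.6 CPM or lower.

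Male against female. Of the 36 genes 5 differed between the sexes in WT and 3 in KO, and the one with the largest fold change, Atp6ap2, was higher in males in both genotypes. Among WT libraries Gusb, Atp6v0d1, Atp6v1d and Atp6ap2 were higher in males and Atp6v1f was lower, which makes 4 and 1 of the 36. Over all tested genes 6.94% were called higher and 10.3% lower, so the members' count is above the first share and below the second. Among KO libraries Atp6ap2 was higher in males, and Atp6v1b2 and Atp6ap1 were lower, which makes 1 and 2 of the 36. Over all tested genes 2.83% were called higher and 4.27% lower. The median log2 fold change of the 36 was -0.06 in WT and -0.09 in KO, against -0.01 and -0.02 over all tested genes.

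In WT every male library lay above every female library for 7 genes (Gusb, Asah1, Npc2, Lamp1, Atp6v0d1, Atp6v1d and Atp6ap2), which held for 8.81% of all tested genes. Every male WT library lay below for Man2b1 and Atp6v1f, which held for 9.41%. In KO no gene was separated upwards, against 4.69% of all tested genes, and Atp6v1b2 and Atp6ap1 were separated downwards, against 4.53%.

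Sex went with the reads-per-UMI range and with markers of other cells. All 8 low-range libraries except female KO replicate 16 were male, and with the range as a covariate 0 of the 36 passed in WT and 0 in KO. Without the 2 libraries under 1000000 UMIs, 9 passed in WT. For these 2 fits the share of all tested genes called is not given here. The summed level of 10 neutrophil markers, all 10 seen in every library, was 920 to 1834 CPM in male WT against 3098 to 16708 CPM in female WT, and 1040.5 to 1322 CPM in male KO against 1676 to 5952 CPM in female KO. The sum over 8 monocyte markers was 52.6 to 88.0 CPM in male WT against 212 to 725 CPM in female WT, where Vcan was at 0 in all 4 libraries, and 47.9 to 108 CPM in male KO against 128 to 204 CPM in female KO. Of the 9 border-associated macrophage markers, 7 were lower in every male WT library than in every female WT library (Mrc1, Cd163, Pf4, Cbr2, Ms4a7, Cd209f and F13a1), against 9.41% of all tested genes. Cd163 was at 1.33 to 4.07 CPM in male WT and 11.4 to 22.6 CPM in female WT, and Pf4 at 13.3 to 24.6 CPM in male WT and 48.9 to 109 CPM in female WT. The sum over the 9 was 837 to 1063 CPM in male WT and 1159 to 1471 CPM in female WT, and in KO 0 of the 9 were separated between the sexes. The sum over 4 choroid plexus markers was 417 to 985 CPM in male WT and 34.9 to 205 CPM in female WT, and that over the oligodendrocyte lineage markers 301 to 875 CPM in male KO and 202 to 261 CPM in female KO. The microglial sum was 29897 to 33804 CPM in male WT and 25751 to 29133 CPM in female WT, and 26377 to 30216 CPM in male KO and 30356 to 35449 CPM in female KO. The remaining sums overlapped between the sexes. The part of these cells in the sex differences was not tested.

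Gusb (chromosome 5, 129989011 to 130003049, minus strand), the beta-glucuronidase, was at 387, 386, 405, 360.0 and 411 CPM in male WT and at 268, 333, 184 and 293 CPM in female WT. In KO it was at 389.8, 372, 424, 453 and 431 CPM in males and at 268, 326, 388 and 288 CPM in females. The WT groups did not overlap, and in KO female replicate 16 reached the male range. Male over female, its log2 fold change was 0.51 ± 0.14 in WT, 1.43-fold (edgeR adjusted p = 0.0134), and 0.38 ± 0.14 in KO (edgeR adjusted p = 0.0954). With the range as a covariate the WT value was 0.30 (edgeR adjusted p = 0.438).

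Atp6v0d1, at the CPM given above, had a log2 fold change of male over female of 0.40 ± 0.11 in WT (edgeR adjusted p = 0.0153) and of 0.16 ± 0.11 in KO (edgeR adjusted p = 0.391). Adjusted for the range of reads per UMI, the WT value was 0.12 (edgeR adjusted p = 0.738). In the middle range alone, male WT libraries were at 217 and 212 CPM and the female WT library at 178 CPM.

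Atp6v1d was at 101, 116, 107, 103 and 109 CPM in male WT and at 71.2, 87.1, 60.5 and 82.4 CPM in female WT. In KO it was at 147, 112, 152, 110.1 and 123 CPM in males and at 79.8, 109, 118 and 54.0 CPM in females. The log2 fold change of male over female in WT was 0.48 ± 0.16 (edgeR adjusted p = 0.0485), close to the threshold, and it passed in 15 of 27 alternatives. It missed the threshold without any one of the 5 male WT libraries, of female WT replicates 30, 34 and 39, or of male KO replicates 6 and 40, with values of 0.42 to 0.52 and edgeR adjusted p-values of 0.0523 to 0.128. After adjustment for the range it was 0.10 (edgeR adjusted p = 0.892).

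Atp6v1f, a small V1 subunit of the rotor shaft, had the opposite sign. It was at 289.8, 274, 252, 272 and 279 CPM in male WT and at 336, 355, 360.5 and 374 CPM in female WT, with no overlap. In KO it was at 268, 298, 319, 266 and 293 CPM in males and at 345, 297, 264 and 412 CPM in females, which overlapped. Male over female, its log2 fold change was -0.38 ± 0.11 in WT (edgeR adjusted p = 0.0238) and -0.17 ± 0.11 in KO (edgeR adjusted p = 0.386). In WT it missed the threshold without female WT replicate 30 or 39 or male WT replicate 13, with values of -0.39 to -0.35 and edgeR adjusted p-values of 0.0505 to 0.0587. With the range as a covariate the WT value was -0.21 (edgeR adjusted p = 0.519).

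Atp6v1b2, the nucleotide-binding B subunit of the widely expressed isoform, was at 95.5, 92.1, 107, 90.9 and 88.3 CPM in male KO and at 138, 127, 107 and 157 CPM in female KO, with no overlap although the closest libraries, female replicate 16 and male replicate 17, both round to 107 CPM. In WT it was at 97.6, 113, 104, 104 and 96.4 CPM in males and at 122, 123, 105 and 153 CPM in females. The log2 fold change of male over female was -0.45 ± 0.12 in KO (edgeR adjusted p = 0.0242) and -0.31 ± 0.12 in WT (edgeR adjusted p = 0.0829). In KO it missed the threshold without female KO replicate 1 (-0.40, edgeR adjusted p = 0.0992) or 7 (-0.46, edgeR adjusted p = 0.0785), or without male KO replicate 36 (edgeR adjusted p = 0.0507) or 40 (edgeR adjusted p = 0.0634). Adjusted for the range of reads per UMI, the KO value was -0.37 (edgeR adjusted p = 0.116).

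Atp6ap1 differed by -0.53 ± 0.14 between male and female KO on the log2 scale (edgeR adjusted p = 0.0219) and by -0.12 ± 0.14 in WT (edgeR adjusted p = 0.597). Its KO libraries did not overlap, with males at 259 to 343.6 CPM and females at 344.4 to 515 CPM, so the closest libraries nearly touched. The call was lost without female KO replicate 1, 7 or 33 or male KO replicate 6 or 17, with values of -0.54 to -0.44 and edgeR adjusted p-values of 0.0504 to 0.0886, and the value without male KO replicates 6, 9 and 17 was -0.33. After adjustment for the range it was -0.43 (edgeR adjusted p = 0.113).

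Atp6ap2 differed by 1.64 ± 0.45 between male and female WT on the log2 scale, 3.12-fold (edgeR adjusted p = 0.0145), and by 1.57 ± 0.41 in KO, 2.97-fold (edgeR adjusted p = 0.0236). The female values rest on few molecules, with 9 to 52 UMIs in 7 libraries and 247 UMIs in KO replicate 16, against 167 to 891 UMIs in male libraries. In the middle range male WT was at 83.7 and 86.1 CPM against 41.6 CPM in female WT, and male KO at 85.6 CPM against 9.79 and 6.45 CPM in female KO. In the low range male KO was at 68.9, 96.1, 93.9 and 90.5 CPM and female KO at 69.3 CPM. With the range as a covariate the log2 values were 0.85 in WT (edgeR adjusted p = 0.541) and 1.40 in KO (edgeR adjusted p = 0.0515). Without female KO replicate 16 the KO value was 3.23 and passed, and it missed the threshold without female KO replicate 1 (1.28, edgeR adjusted p = 0.0894) or 7 (1.16, edgeR adjusted p = 0.0937). The WT value missed it without female WT replicate 30 (1.42, edgeR adjusted p = 0.068).

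Atp6ap2 is on the X chromosome, as are Lamp2, Tfe3 and Atp6ap1. The 4 did not share a direction between the sexes, with WT log2 fold changes of 1.64 for Atp6ap2, 0.20 for Tfe3, 0.00 for Lamp2 and -0.12 for Atp6ap1.

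**Figure D4:**
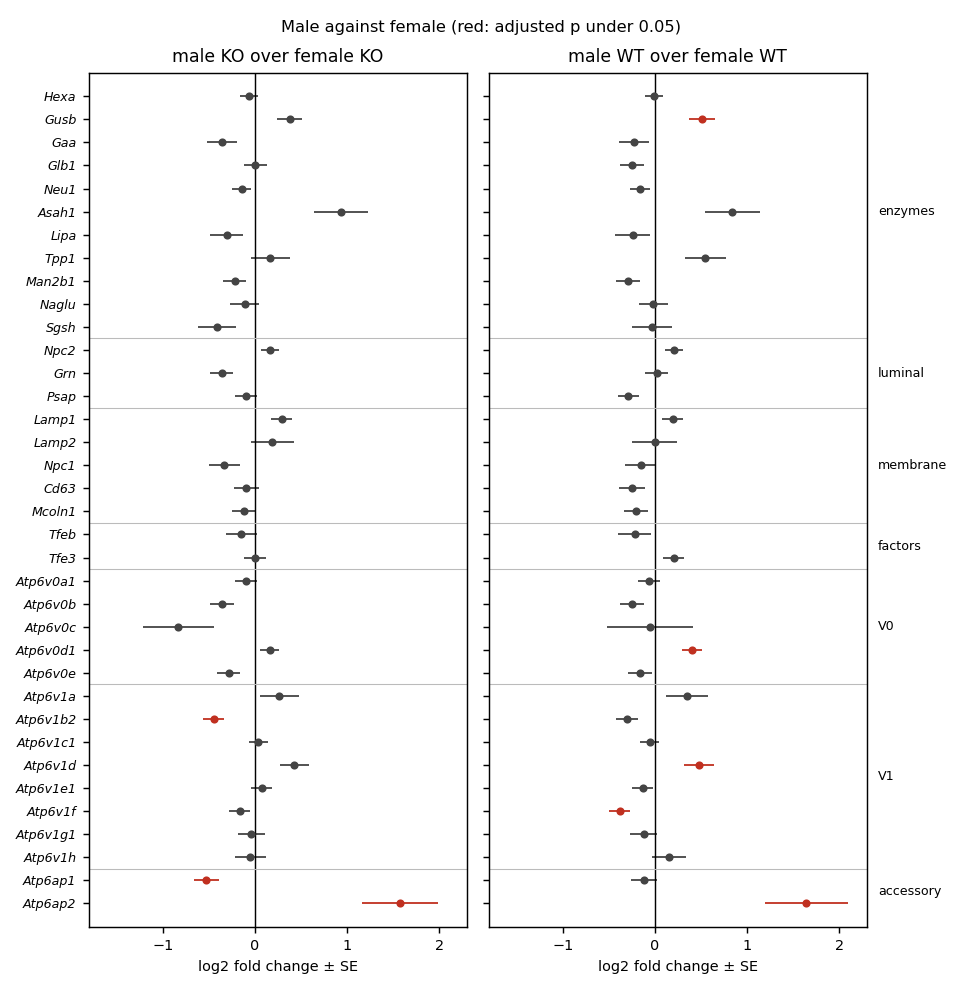
Log2 fold change ± SE of male over female for each of the 36 genes, in KO and in WT libraries, with genes at an adjusted p under 0.05 in red. Atp6ap2 lies at 1.57 in KO and 1.64 in WT, and the other red points lie between -0.53 and 0.51.

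Other genes of the pathway. Another 84 lysosomal and V-ATPase genes were listed by role, and 71 were tested. In the KO average 1 of the 71 rose and 2 fell (1.41% and 2.82%, against 4.37% and 5.13% of all tested genes). In females 1 rose and 0 fell, against 0.849% and 1.83% of all tested genes, and in males 0 rose and 2 fell, against 3.37% and 2.87%. Lamtor4, a subunit of the Ragulator complex that anchors mTORC1 to the lysosome, averaged 309.5 ± 29.5 CPM in male KO and 386 ± 33.8 CPM in male WT, and 329 ± 40.6 CPM in female KO and 432 ± 31.0 CPM in female WT. It fell by 0.36 ± 0.08 on the log2 scale in the average (edgeR adjusted p = 0.00502), and passed in 26 of 26 alternatives. Galns, a sulphatase of keratan sulphate, averaged 22 ± 2.67 CPM in male KO and 27.1 ± 3.26 CPM in male WT, and 17.0 ± 4.83 CPM in female KO and 26.4 ± 4.71 CPM in female WT. Its averaged log2 fold change was -0.40 ± 0.12 (edgeR adjusted p = 0.0379), which passed in 10 of 26 alternatives.

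Arsg, a sulphatase of heparan sulphate, rose in the average by 0.64 ± 0.15 (edgeR adjusted p = 0.00730), at 75.0 ± 7.82 CPM in male KO and 58.3 ± 3.68 CPM in male WT, and at 72.1 ± 24.7 CPM in female KO and 37.3 ± 18.9 CPM in female WT. In males Slc11a1, the metal transporter NRAMP1 of macrophage phagosomes, fell to 322 ± 30.0 CPM in KO, against 587 ± 25.8 CPM in WT (log2 fold change -0.87 ± 0.23, edgeR adjusted p = 0.0246). The V-ATPase partner Tmem9 fell to 25.7 ± 3.98 CPM in male KO, against 36.8 ± 1.56 CPM in male WT (log2 fold change -0.53 ± 0.14, edgeR adjusted p = 0.0209). Slc11a1 and Tmem9 each passed in 20 of 28 alternatives in males. Without male KO replicates 6, 9 and 17 the male change of Slc11a1 did not pass (edgeR adjusted p = 0.260). Arsg passed in 24 of 26 alternatives in the average. The female log2 fold change of Arsg was 0.92 ± 0.23 (edgeR adjusted p = 0.0366) and passed in 17 of 27 alternatives. In females Slc11a1 averaged 491 ± 314 CPM in KO and 498 ± 139 CPM in WT, and the difference of its KO effects, 0.78 ± 0.35, female minus male, did not pass (edgeR adjusted p = 0.515).

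Between the sexes 8 of the 71 were higher and 3 lower in male WT (11.3% and 4.23%, against 6.94% and 10.3% of all tested genes), and 3 were higher and 2 lower in male KO (4.23% and 2.82%, against 2.83% and 4.27%). Laptm4a, Rraga and M6pr were called higher in males in both genotypes. Their log2 fold changes were 1.15, 0.94 and 0.49 in WT and 0.75, 1.34 and 0.51 in KO. Tcirg1, the a3 subunit of the pump, was called lower in males in both. In WT it averaged 596 ± 46.9 CPM in males and 918 ± 238 CPM in females (log2 fold change -0.62 ± 0.18, edgeR adjusted p = 0.0193). In KO it averaged 569.9 ± 70.6 CPM in males and 882 ± 274 CPM in females (-0.62 ± 0.18, edgeR adjusted p = 0.0354).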

How the data were processed

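The authors deposited whole-number counts per gene as read counts and as UMI-corrected counts, and the UMI-corrected counts were used here. Per the submitters' processing notes, cutadapt, STAR, HTSeq and the build mm10 were used. Tool versions, annotation, read filters, strand setting and the UMI method were not given in the sources used here. There were 16 columns per file of no sample analysed here, which stayed out. Of 55414 identifiers, 52081 were named from GENCODE M21 (GRCm38). UMIs per library ranged 21.0-fold. The 32 replicate pairs differed by more than sampling noise (chi-square per degree of freedom 2.81 to 13.4). Genes were filtered with filterByExpr, scaled by TMM and fitted with 1 mean per group over 18 libraries in edgeR 4.0.16 (R 4.3.3) with a quasi-likelihood test (common biological coefficient of variation 17.8%). SE was the log2 fold change over the root of F. The fit was tested on simulated data. Alternatives were read counts, DESeq2 1.42.0, RLE scaling, other filters, fits to the groups compared, the reads-per-UMI range, shallow or neural-rich libraries left out, and each library left out. Genes named in full were those called and the lowest p of each class, and other members were summarised, except Sgsh, given in full after its values were seen. Members and lists were chosen with earlier results of these data known.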

Additional observations from a re-analysis of the deposited data

Results flagged for a closer look

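Of 144 sets of values, 1 for each gene in each group, 10 held a library whose gap to the next was large against the range of its group (Dixon's test at the 95% level), where chance gives about 1 in 20, or 7.2. Female KO replicate 33, the shallowest library, was the highest of its group for Gaa (316 CPM), Man2b1 (2354 CPM) and Grn (4722 CPM). Female WT replicate 34 was the lowest of its group for Npc2 (799 CPM). In male KO the highest library stood apart for Gaa (184 CPM) and Tfeb (153 CPM) in replicate 9, Cd63 (671 CPM) in replicate 17 and Glb1 (95 CPM) in replicate 40. In male WT it stood apart for Psap (1817 CPM) in replicate 13 and Atp6v0b (1076 CPM) in replicate 14.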

How the results depend on the processing

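No paired analysis was possible because each library has its own replicate number and the groups share none. Of 5731 single-gene results under the alternatives, 5327 kept their direction and side of the threshold, 61 lost the call and 77 gained it. Another 264 changed sign without passing the threshold in either fit, and 2 changed sign and passed it. Both of the last were Atp6ap2 without female KO replicate 16, at -1.49 in the female and -0.70 in the averaged KO comparison, where leaving out other libraries gave up to 0.58 (female KO replicate 7) and 0.33 (the same library). The number of the 36 genes called was 0 in females, 0 in males, 2 in the average, 0 in the difference of KO effects, 5 between WT sexes and 3 between KO sexes. With DESeq2 it was 1 in females, 1 in males and 6 between KO sexes (Atp6ap2 had no adjusted p there). With read counts it was 0 in the average and 2 between WT sexes. With no filter on low counts it was 2 in females. Fitting the groups compared alone gave 3 in males and 0 between KO sexes. Adjusting for the range of reads per UMI gave 1 in males, 0 between WT sexes and 0 between KO sexes, and the low-range libraries alone gave 4 in males. Without male KO replicates 6, 9 and 17 it was 0 in the average and 0 between KO sexes. Without libraries under 1000000 UMIs it was 2 in females, 2 in males, 6 in the average and 9 between WT sexes. Leaving out 1 library at a time gave 0 to 2 in females, 0 to 2 in males, 1 to 8 in the average, 0 to 0 in the difference, 2 to 8 between WT sexes and 0 to 9 between KO sexes. The 8 in the average and the 8 between WT sexes came without female KO replicate 33, and the 9 between KO sexes without female KO replicate 16. The 0 between KO sexes came without female KO replicate 1 or 7, and the 2 between WT sexes without female WT replicate 30. The share of all tested genes called in each alternative is not given here, so these counts cannot be read as particular to the 36 genes. The cause was not tested. Scaling by RLE moved the median of all genes by at most 0.01 on the log2 scale. Few molecules were counted for Atp6v0c (1 to 25 UMIs a library) and for Atp6ap2 in most female libraries. This was not confined to the shallow libraries. Female KO replicates 1 and 7, with 1919717 and 3117474 UMIs in all, gave 19 and 21 UMIs of Atp6ap2. The deepest library, male KO replicate 40 with 9149144 UMIs, gave 25 UMIs of Atp6v0c.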
